A study of Mus musculus with 9 samples.

Results

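Voltage-gated sodium and calcium channels are described here in the mouse hippocampus through the genes of their pore-forming and auxiliary subunits. The genes were taken as every row of the deposited tables whose symbol starts with Scn and a digit or with Cacn, which gave 40 of 24411 rows. Of these, 14 encode sodium channel subunits and 26 encode calcium channel subunits or their relatives. All 40 symbols were found in GENCODE M21 on GRCm38, Scn2a1 under its current name Scn2a.

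RNA-Seq was performed on hippocampi of 9 male wild-type C57BL/6J mice, labelled as 10 weeks old, with 1 library per mouse. All mice had been injected on both sides into CA1 with adeno-associated virus serotype 9 (AAV9) carrying Egfp with CTG repeats in its 3′-UTR, and tissue was taken on day 10. CUG10 mice (n = 3) received the vector with 10 repeats and vehicle. CUG300 mice received the vector with 300 repeats, either with vehicle (n = 3) or with CWG-cPIP (n = 3), a cyclic pyrrole-imidazole polyamide made to bind CAG/CTG repeat DNA, at 83 μg/kg. The control mice therefore also carried a vector and a short repeat, and no uninjected mouse was used here. Compound or vehicle was injected as a mixture with the vector, per the paper. No CUG10 mice were given CWG-cPIP, so an effect of the compound apart from the repeat cannot be told from one through the repeat. The promoter that drove the transgene is not given in the sources used here, and each gene value is an average over all cells of the tissue, with or without vector. The deposited values are regularized logarithms (rlog), counts scaled between mice and put on a log2 scale, so a difference of 1 is a doubling. They carry no counts, so the depth behind them is unknown.

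A voltage-gated sodium channel is one large α subunit that forms the pore, joined by small β subunits that set its gating and its place in the membrane. In hippocampal neurons these channels start and carry the action potential from the axon initial segment. Calcium channels are built around an α1 pore with an α2δ subunit outside the membrane and a β subunit inside it; the Cav2 family triggers transmitter release, the Cav1 family couples depolarization to signaling and transcription, and the Cav3 family opens near the resting potential. Most γ subunits of the brain act as transmembrane AMPA receptor regulatory proteins (TARPs) rather than as parts of calcium channels.

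List means of markers of neurons, CA1 pyramidal cells and dentate granule cells were above 0 in every mouse. So were those of choroid plexus, diencephalon and striatum, so that this alone does not tell hippocampus from other brain tissue. On the rlog scale a value above 0 is also no test of presence, as Scn10a lay between 0.29 and 0.47 in all mice. Medians over the 14867 genes tested, those with a mean of at least log2(10), lay between 8.43 and 8.54 per mouse. Of the channel genes, 33 passed this minimum, 10 for sodium and 23 for calcium channels. The 7 that did not are Scn4a, of skeletal muscle, Scn9a, Scn10a and Scn11a, of peripheral sensory neurons, Cacna1f, of the retina, and the muscle-type γ subunits Cacng1 and Cacng6, with means between 0.34 and 2.95. No statement on change is made for these 7 genes.

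Within the family, levels were compared per length, as rlog minus log2 of the exonic length in kb, in CUG10 mice. Sodium channel β subunits stood high, Scn2b at 9.95 ± 0.06 (SD, n = 3) and Scn3b at 9.11 ± 0.05. Among sodium channel pores the order was Scn2a1 (8.12 ± 0.08), Scn8a (7.79 ± 0.08), Scn1a (6.74 ± 0.12) and Scn3a (5.20 ± 0.22), the usual set of central neurons, with no overlap between the mice of neighboring genes. Among calcium channel pores the Cav2 genes Cacna1a (6.66 ± 0.14) and Cacna1b (6.59 ± 0.22) and the Cav3 genes Cacna1h (6.45 ± 0.27) and Cacna1i (6.39 ± 0.15) overlapped in their mice and were not separated. The Cav3 gene Cacna1g (5.60 ± 0.11) and the Cav2 gene Cacna1e (5.43 ± 0.41) stood below them. The Cav1 genes Cacna1d (4.98 ± 0.18) and Cacna1c (4.91 ± 0.31) overlapped with each other and with Cacna1e. Of the auxiliary calcium channel genes, Cacnb3 (9.23 ± 0.06), Cacng8 (9.11 ± 0.13) and Cacnb1 (8.81 ± 0.06) were the most abundant per length, whereas Cacna2d3 (7.55 ± 0.16) and Cacna2d1 (7.45 ± 0.11) overlapped. In the plot of levels per length, the sodium channel pores and the γ genes spread widely, whereas the sodium channel β, Cav2, Cav3 and calcium channel β genes have no member near the lower end of the scale.

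**Figure D1:**
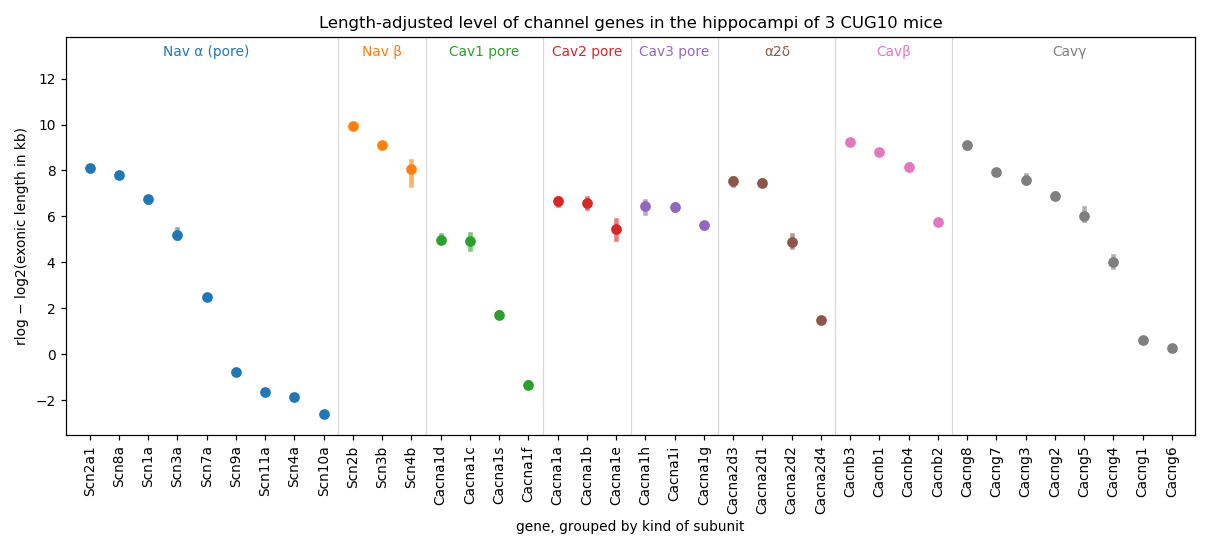
Level of 38 channel genes in CUG10 mice, as rlog minus log2 of the exonic length in kb (vertical axis), with genes grouped by kind of subunit (horizontal axis). Points are means of 3 mice and bars run from the lowest to the highest mouse; of the genes drawn, Scn2b is highest at 9.95 and Scn10a lowest at -2.61.

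CWG-cPIP is directed at CAG/CTG repeats, so the longest uninterrupted CAG and CTG runs in the GENCODE transcripts of the channel genes were read. The 5-unit CAG run of Cacna1e was the longest, in noncoding sequence of the last exon (exon 47 of 47) at chr1:154396484-154396498 of GRCm38, on the minus strand. The longest CTG run, of 4 units, was in noncoding sequence of exon 27 of 27 of Scn2a1 at chr2:65766149-65766160. Both are shown with their flanks, the repeat units in capitals.
Cacna1e: acaccgCAGCAGCAGCAGCAGttctga
Scn2a1: ctcttgCTGCTGCTGCTGtatctt
A run of at least 5 units was found in 1 of the 33 channel genes tested (3.03%) and in 3.33% of all genes tested that had a transcript. Neither is near the 300 units of the vector.

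In CUG300 mice given vehicle, most channel genes had lower means than in CUG10 mice, with a median below 0 in both families and in each kind of subunit, although few passed the test for single genes. The T-type calcium channel pore gene Cacna1i fell 1.93-fold, the calcium channel β subunit gene Cacnb4 1.65-fold, the sodium channel β2 gene Scn2b 1.62-fold and the α2δ-3 gene Cacna2d3 1.32-fold. The mean was lower in 31 of the 33 genes, with a median log2 difference of -0.35 against -0.01 over all genes tested. Only the skeletal muscle pore gene Cacna1s and the TARP gene Cacng5 had a higher mean. In limma, 4 of 33 genes (12.1%) were called lower at an adjusted p under 0.05, beside 3.34% of all genes tested, and 0 were called higher, beside 7.37%. At an unadjusted p under 0.05 there were 20, of which 19 were lower, beside 30.5% of all genes in either direction. Every CUG300 mouse given vehicle lay below every CUG10 mouse in 17 genes (51.5%), beside 16.7% of all genes. Fewer cells of a type and less RNA per cell cannot be told apart in whole tissue. The 33 genes share their mice, and no p is given for the list as a whole.

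The calls depended on single mice. The count of called channel genes was 0 without CUG10 replicate 1, 2 or 3, CUG300 vehicle replicate 3 or CUG300 CWG-cPIP replicate 1, 12 without CUG300 vehicle replicate 2 and 8 without CUG300 CWG-cPIP replicate 3. In the first 5 of these fits, called genes over the whole table also dropped from 1592 to 0, 2, 0, 0 and 265. Without CUG300 vehicle replicate 2 and without CUG300 CWG-cPIP replicate 3 they rose, to 2489 and 2300. Of these, 1166 and 777 were lower, against 496 with all mice.

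**Figure D2:**
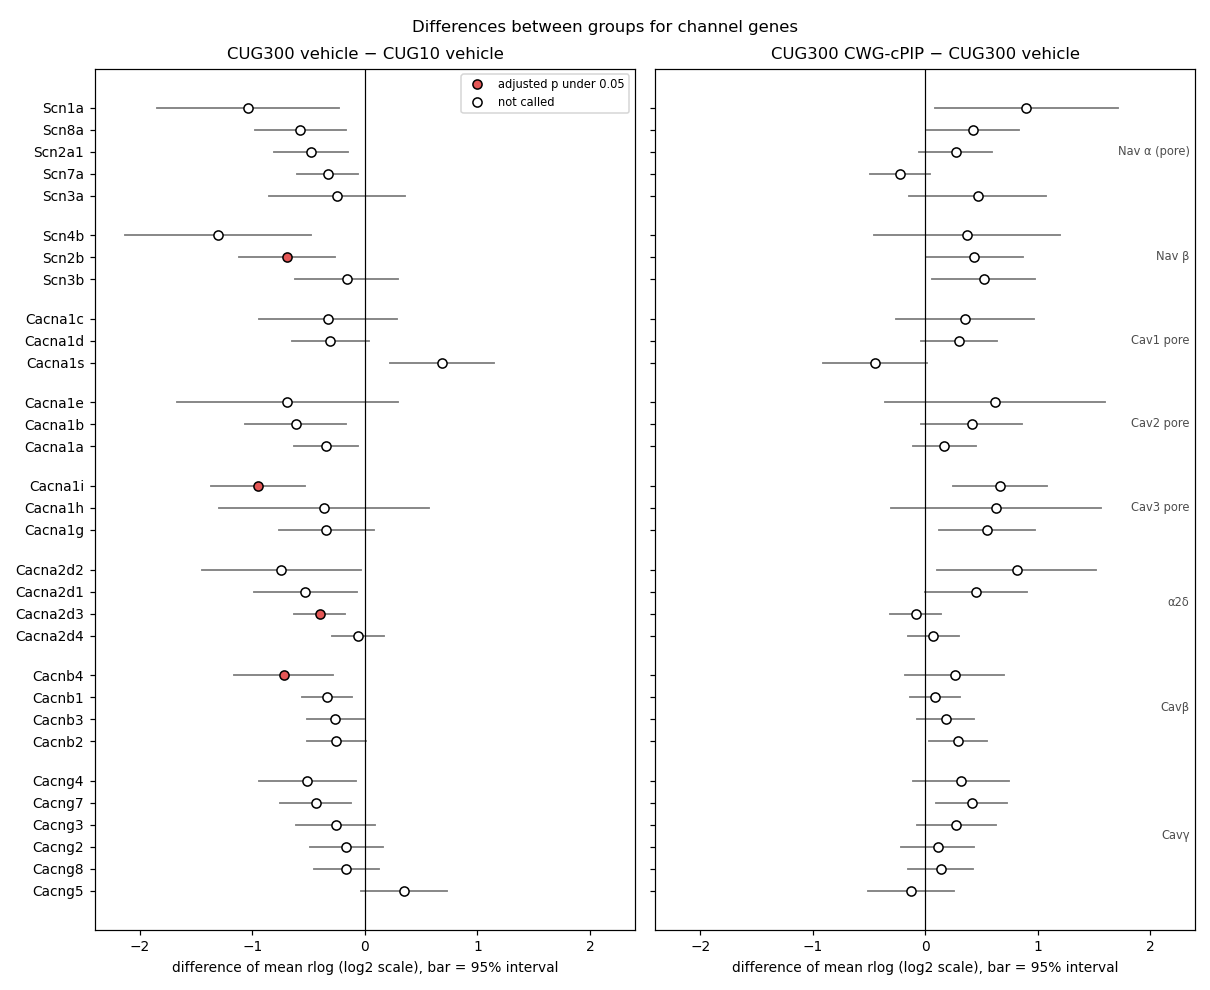
Difference of group means for 31 of the channel genes tested, CUG300 vehicle minus CUG10 vehicle (left) and CUG300 CWG-cPIP minus CUG300 vehicle (right), on the log2 scale, with genes grouped by kind of subunit; bars are 95% intervals from limma and red points passed an adjusted p under 0.05. On the left 29 points lie below 0 and 4 are red; on the right 27 lie above 0 and none is red.

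Of the 6 sodium channel pore genes tested, all had lower means in CUG300 mice given vehicle and 0 were called by limma. At an unadjusted p under 0.05 there were 5, beside 30.5% of all genes, and the median was -0.41. Scn1a encodes Nav1.1, the channel of fast-spiking interneurons whose loss causes Dravet syndrome. It read 10.30, 10.09 and 10.28 in CUG10 mice, 8.80, 9.89 and 8.85 in CUG300 mice given vehicle, and 10.15, 10.71 and 9.38 with CWG-cPIP. Replicate 2 of the vehicle mice stood over 1 log2 unit above both other vehicle mice, still below all CUG10 mice. The difference was -1.04 ± 0.36 (SE; limma adjusted p = 0.091).

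Scn2a1 encodes Nav1.2, an axonal channel of excitatory neurons and the most abundant sodium channel pore gene per length. Its values were 11.73, 11.77 and 11.88 in CUG10 mice, 11.47, 11.51 and 10.96 in CUG300 mice given vehicle, and 11.62, 11.66 and 11.48 with CWG-cPIP. All CUG300 mice, treated or not, lay below the CUG10 mice, with a difference of -0.48 ± 0.14 for vehicle (limma adjusted p = 0.0637). Scn8a, which encodes Nav1.6 of the axon initial segment and nodes of Ranvier, differed by -0.57 ± 0.18 (limma adjusted p = 0.0705), again without overlap. Scn3a, the pore of the developing brain, overlapped between groups (-0.25 ± 0.27).

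Scn7a encodes Nax, a sodium level sensor of glia and neurons that is not gated by voltage. It read 5.35, 5.42 and 5.37 in CUG10 mice, 5.07, 4.90 and 5.18 in CUG300 mice given vehicle, and 4.66, 4.83 and 4.99 with CWG-cPIP. Its CUG300 mice lay below the CUG10 mice in both treatments. The difference was -0.33 ± 0.12 for vehicle (limma adjusted p = 0.1).

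Among the 4 sodium channel β genes, all had lower means and Scn2b was called. Scn2b encodes β2, a disulfide-linked subunit that raises the number of channels at the surface. Its values were 12.11, 12.18 and 12.22 in CUG10 mice, 11.69, 11.77 and 10.97 in CUG300 mice given vehicle, and 11.93, 12.01 and 11.81 with CWG-cPIP. Vehicle mice lay below CUG10 mice without overlap, replicate 3 by more than 1 log2 unit, and the treated mice lay between the groups. The difference was -0.69 ± 0.19 (limma adjusted p = 0.0495), and it passed in 6 of 20 alternative fits (adjusted p from 0.0344 to 0.903). Scn2b overlaps Gm10684 on the opposite strand.

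Scn4b encodes β4, also disulfide-linked and known for resurgent sodium current, and is strongly expressed in the striatum. It had the largest difference of the family, -1.31 ± 0.37, which missed the threshold (limma adjusted p = 0.0519). Values were 9.67, 10.73 and 10.71 in CUG10 mice, 9.53, 9.03 and 8.62 in CUG300 mice given vehicle, and 9.45, 9.96 and 8.88 with CWG-cPIP. CUG10 replicate 1 stood 1 log2 unit below the other CUG10 mice and close to the highest vehicle mouse. The mean of 5 striatal markers (Drd1, Drd2, Ppp1r1b, Rgs9 and Adora2a, none at 0) was also lowest in that CUG10 mouse, at 7.04 against 8.34 and 8.72, and read 7.90, 6.89 and 7.25 in vehicle mice and 6.81, 7.01 and 6.75 with CWG-cPIP. None of the 5 was called by limma (0 at an unadjusted p under 0.05, all with lower means), and the part of tissue outside the hippocampus in the Scn4b values was not tested.

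Scn3b, the noncovalent β3 subunit, stood at 11.52, 11.54 and 11.61 in CUG10 mice, 11.30, 11.91 and 10.98 with vehicle and 12.04, 11.94 and 11.77 with CWG-cPIP. Vehicle mice lay on both sides of the CUG10 mice (-0.16 ± 0.20) and all treated mice lay above them.

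Of 3 Cav1 (L-type) pore genes tested, 0 were called by limma and 1 reached an unadjusted p under 0.05, beside 30.5% of all genes. Cacna1d, the pore that opens at lower voltages than other L-type channels, read 8.53, 8.54 and 8.84 in CUG10 mice, 8.17, 8.62 and 8.19 with vehicle and 8.73, 8.65 and 8.52 with CWG-cPIP. Replicate 2 of the vehicle mice lay within the CUG10 range, and the difference was -0.31 ± 0.15. Cacna1c, the main L-type pore of brain and heart, behaved likewise in its means (-0.33 ± 0.27). Both genes overlap other genes on the opposite strand, Chdh and Dcp1a for Cacna1d and Dcp1b for Cacna1c, and whether the counting used strand is not stated.

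Cacna1s, the pore and voltage sensor of skeletal muscle, was the exception in direction. Values were 4.35, 4.57 and 4.34 in CUG10 mice, 5.34, 4.67 and 5.32 in CUG300 mice given vehicle, and 4.64, 4.40 and 4.95 with CWG-cPIP. All vehicle mice lay above all CUG10 mice, replicate 2 by little, and the difference was 0.69 ± 0.20 (limma adjusted p = 0.0615). The gene stood far below the neuronal pores per length, at 1.71 ± 0.13 in CUG10 mice. Missplicing of CACNA1S is known in myotonic dystrophy muscle; these values cover whole genes and carry nothing on exon use.

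All 3 Cav2 pore genes, those of presynaptic calcium entry, had lower means, with a median of -0.61. By limma 0 were called and 2 were at an unadjusted p under 0.05, beside 30.5% of all genes. Cacna1a, the P/Q-type pore, read 10.03, 10.31 and 10.17 in CUG10 mice, 9.63, 10.00 and 9.85 in CUG300 mice given vehicle, and 10.10, 10.05 and 9.85 with CWG-cPIP. Vehicle mice lay below CUG10 mice without overlap (-0.35 ± 0.13, limma adjusted p = 0.103). Cacna1e, the R-type pore, read 9.67, 10.10 and 10.49, then 8.51, 10.34 and 9.35, then 10.23, 10.36 and 9.47 in the same order of groups. Here the vehicle mice spanned more than the CUG10 mice, replicate 2 standing near their top, and the difference of -0.69 ± 0.43 was not separable from that spread (limma adjusted p = 0.307). Cacna1b, the N-type pore, differed by -0.61 ± 0.20 (limma adjusted p = 0.0767), with replicate 2 just inside the CUG10 range.

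Among the 3 Cav3 (T-type) pore genes, Cacna1i was called and Cacna1h and Cacna1g were not. Cacna1i read 9.65, 9.57 and 9.86 in CUG10 mice, 8.50, 8.86 and 8.87 in CUG300 mice given vehicle, and 9.48, 9.72 and 9.02 with CWG-cPIP. The vehicle mice lay well below every other mouse except treated replicate 3, which stood just above them. The difference of -0.95 ± 0.18 had the smallest adjusted p of the family (limma, 0.0246) and passed in 13 of 20 alternative fits (0.00341 to 0.298). Cacna1h, whose level per length overlapped with that of Cacna1i, read 9.44, 9.82 and 9.96 in CUG10 mice, 8.42, 10.24 and 9.46 with vehicle and 10.19, 10.35 and 9.48 with CWG-cPIP. Its vehicle mice lay on both sides of the CUG10 mice, and the difference of -0.36 ± 0.41 turned to 0.11 without CUG300 vehicle replicate 1. Cacna1g, the T-type pore of thalamic relay neurons, differed by -0.34 ± 0.19.

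All 4 α2δ genes had lower means and Cacna2d3 was called. The α2δ proteins carry the pore to the membrane and to presynaptic sites. Cacna2d3 read 10.50, 10.81 and 10.71 in CUG10 mice, 10.26, 10.18 and 10.38 in CUG300 mice given vehicle, and 10.18, 10.15 and 10.24 with CWG-cPIP. The 6 CUG300 mice lay close together and all below the CUG10 mice. The difference was -0.40 ± 0.10 for vehicle (limma adjusted p = 0.0401), and it passed in 8 of 20 alternative fits (0.0239 to 0.3). Cacna2d3 contains the gene Lrtm1 on the opposite strand.

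Cacna2d2, a receptor of gabapentin like Cacna2d1, read 7.76, 7.66 and 8.17 in CUG10 mice, 6.82, 7.55 and 6.99 with vehicle and 8.04, 8.50 and 7.26 with CWG-cPIP. Vehicle mice lay below CUG10 mice without overlap (-0.74 ± 0.31, limma adjusted p = 0.147), whereas the treated mice spread from the vehicle range to above the CUG10 range. Cacna2d1 differed by -0.53 ± 0.20 and the low-level Cacna2d4 by -0.06 ± 0.10.

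All 4 genes of the intracellular β subunits had lower means and Cacnb4 was called. Cacnb4 encodes β4, the subunit lost in the ataxic and epileptic lethargic mouse. It read 11.43, 11.21 and 11.34 in CUG10 mice, 10.60, 10.85 and 10.36 in CUG300 mice given vehicle, and 10.88, 11.25 and 10.47 with CWG-cPIP. Vehicle mice lay below CUG10 mice without overlap, by -0.72 ± 0.19 (limma adjusted p = 0.0474; 8 of 20 alternative fits passed, 0.0155 to 0.604). Treated mice lay across both groups, replicate 2 within the CUG10 range and replicate 3 within the vehicle range. Cacnb4 overlaps A430018G15Rik on the opposite strand. Cacnb3, the most abundant β gene per length, read 11.28, 11.16 and 11.27, then 10.87, 11.22 and 10.83, then 11.21, 11.11 and 11.16. Its vehicle replicate 2 lay inside the CUG10 range (-0.26 ± 0.11). Cacnb1 differed by -0.34 ± 0.10 without overlap (limma adjusted p = 0.0567) and Cacnb2 by -0.25 ± 0.12.

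Of the 6 γ genes tested, 0 were called by limma and 2 reached an unadjusted p under 0.05, beside 30.5% of all genes. The median was -0.21. Cacng8 encodes TARP γ-8, the hippocampal AMPA receptor partner, and read 10.19, 10.42 and 10.41 in CUG10 mice, 9.99, 10.40 and 10.14 with vehicle and 10.45, 10.21 and 10.29 with CWG-cPIP. The groups overlapped (-0.16 ± 0.13). Cacng4, the γ-4 TARP gene, read 5.62, 5.90 and 6.10 in CUG10 mice, 5.25, 5.57 and 5.26 with vehicle and 5.68, 6.00 and 5.36 with CWG-cPIP. Its vehicle mice lay below all CUG10 mice (-0.51 ± 0.19, limma adjusted p = 0.109). The TARP gene Cacng7 was also lower without overlap (-0.44 ± 0.14, limma adjusted p = 0.0737). Cacng3 was lower by a narrow gap, its highest vehicle mouse at 8.90 and its lowest CUG10 mouse at 8.92 (-0.26 ± 0.15, limma adjusted p = 0.279). Cacng2, stargazin, overlapped (-0.17 ± 0.14), and Cacng5 was higher in its mean (0.34 ± 0.17, limma adjusted p = 0.2).

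**Figure D3:**
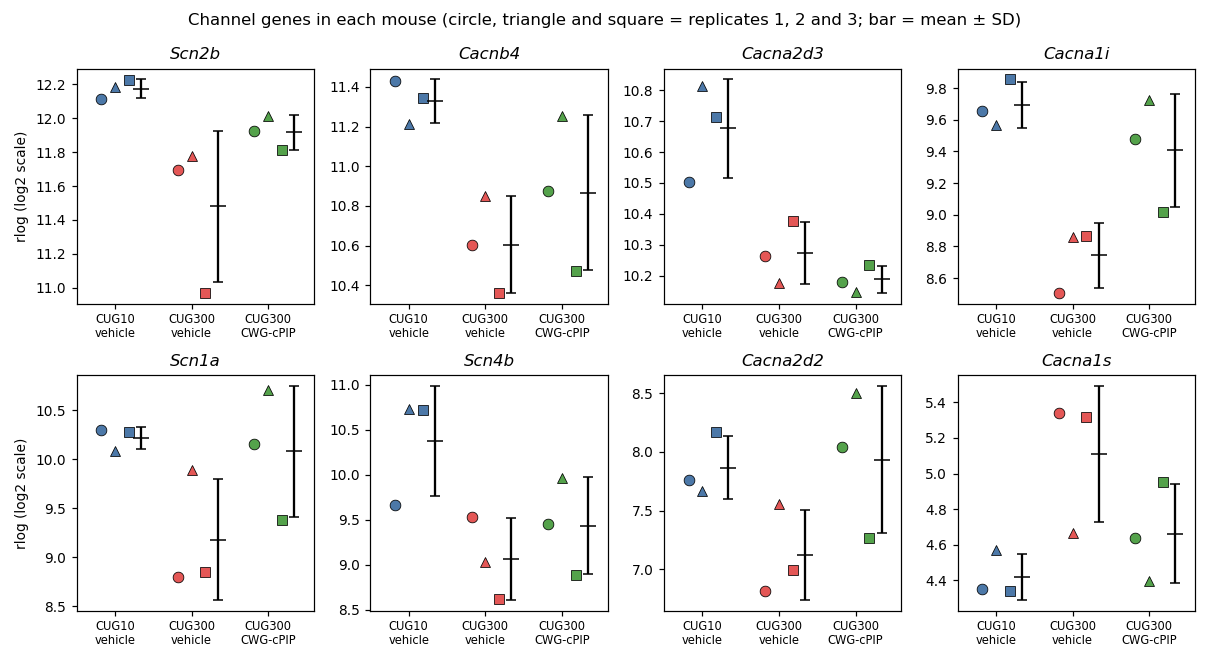
Value of 8 channel genes in each mouse, as rlog on the log2 scale (vertical axes differ in range and do not start at 0), in CUG10 vehicle (blue), CUG300 vehicle (red) and CUG300 CWG-cPIP (green) mice; circle, triangle and square are replicates 1, 2 and 3, and bars are mean ± SD. The top row holds the 4 called genes, in which all vehicle mice lie below the CUG10 mice, and Cacna1s, at the lower right, has the opposite order.

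Because 3 of the called genes have a RefSeq start whose upstream sequence lies outside any transcribed part, the 150 bases before the start are shown for these, 5′ to 3′ on the strand of the gene. Capitals mark GC boxes (GGGCGG or CCGCCC), the binding motif of Sp1 factors. Coordinates on GRCm38 are chr15:80287088-80287237 on the plus strand for Cacna1i, chr14:29721865-29722014 on the minus strand for Cacna2d3 and chr9:45117632-45117781 on the plus strand for Scn2b.
Cacna1i: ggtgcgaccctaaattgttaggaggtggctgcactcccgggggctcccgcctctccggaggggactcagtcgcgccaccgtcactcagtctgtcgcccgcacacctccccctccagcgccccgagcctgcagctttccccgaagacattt
Cacna2d3: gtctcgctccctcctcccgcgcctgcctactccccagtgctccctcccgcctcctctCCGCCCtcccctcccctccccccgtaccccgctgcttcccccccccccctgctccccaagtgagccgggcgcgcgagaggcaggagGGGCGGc
Scn2b: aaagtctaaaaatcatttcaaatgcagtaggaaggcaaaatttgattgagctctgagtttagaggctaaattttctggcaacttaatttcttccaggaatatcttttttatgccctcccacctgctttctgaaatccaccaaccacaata
The windows of Cacna1i and Cacna2d3 were 66.7% and 77.3% G or C, with 12 CG dinucleotides each, and that of Scn2b was 36.0% with 0. The GC box occurred within 250 bases before the first listed start in 12 of the 30 channel genes with a RefSeq promoter entry, beside 32.7% of 32851 promoters. CAGCAG or its complement CTGCTG, 2 units of the repeat that CWG-cPIP is made to bind, occurred in 7 of the 30, beside 25.4% of promoters, and in 0 of the 4 called genes. These matches are a description of the letters and carry no claim on binding.

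The mice differed in how many channel genes lay below the CUG10 range. The median over the 33 genes, each taken relative to the CUG10 mean, was -0.07, -0.01 and 0.06 in CUG10 mice, -0.48, -0.14 and -0.44 in CUG300 mice given vehicle, and -0.02, 0.03 and -0.27 with CWG-cPIP. Vehicle replicate 2 and treated replicate 3 thus stood apart from their groups, each nearer to the other treatment. Of the 33 genes, 30, 17 and 30 lay below all CUG10 mice in the vehicle mice and 10, 7 and 24 in the treated mice, beside 37.2% to 41.4% and 30.7% to 37.8% of all genes tested. For the sodium channel genes replicate 2 of the vehicle mice was close to the others, with 8 of 10 genes below all CUG10 mice, whereas for the calcium channel genes 9 of 23 did so. No test was made of this difference.

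**Figure D4:**
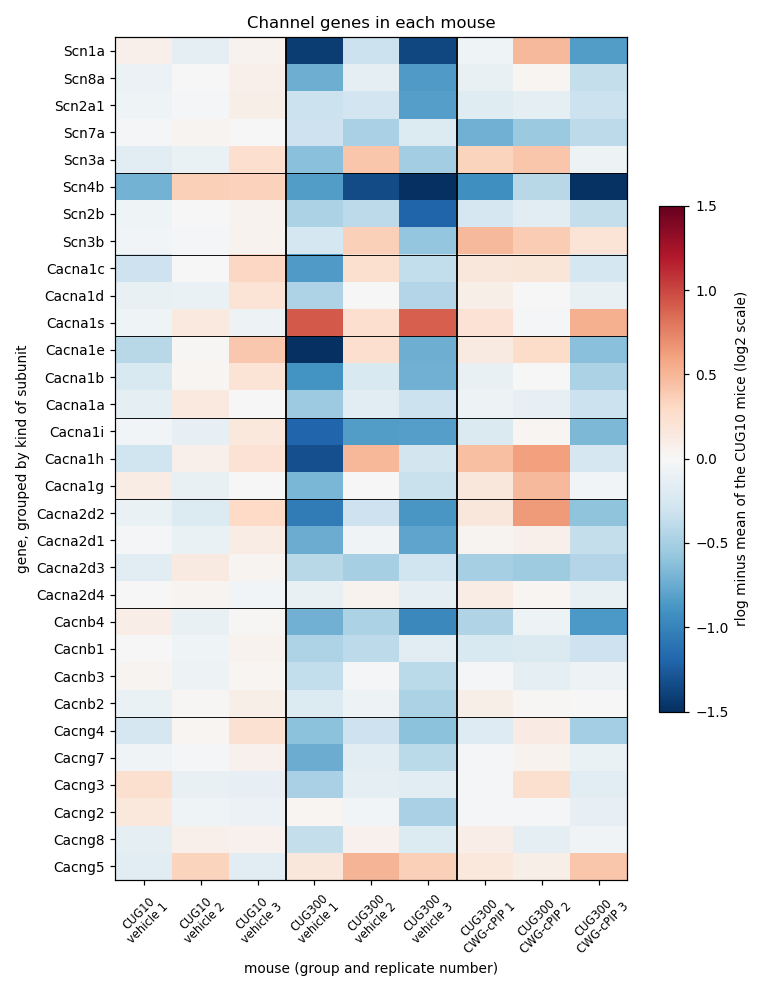
Heat map of 31 of the channel genes tested (rows, grouped by kind of subunit) in the 9 mice (columns), colored by rlog minus the mean of the CUG10 mice on the log2 scale, blue for lower and red for higher, with colors at their end beyond 1.5. CUG300 vehicle replicates 1 and 3 lie below all CUG10 mice in 28 of these rows each and vehicle replicate 2 in 15, while Cacna1s and Cacng5 are red in these 3 mice.

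Most neuronal and all 6 oligodendrocyte markers had lower means in CUG300 mice given vehicle, as most channel genes did. The mean of 12 pan-neuronal markers ran from 13.19 to 13.35 in the CUG10 group, from 12.74 to 13.07 in the vehicle group and from 13.03 to 13.08 in the treated group, and 3 of 12 were called lower by limma in vehicle mice, with a median of -0.41. Of 6 CA1 pyramidal markers 3 (50.0%) were called lower, beside the same 3.34% (median -0.49, list mean 9.89 to 10.14 in CUG10 and 9.44 to 9.65 in vehicle mice). Wfs1 (-0.02) and Pou3f1 (0.05) of this list hardly differed. Of 7 interneuron markers 0 were called by limma and 3 reached an unadjusted p under 0.05 (10.33 to 10.57 and 9.71 to 10.19). Of all genes, 30.5% reached that unadjusted p in either direction. Dentate granule markers lay on both sides of the CUG10 mice in the vehicle group, with list means of 7.84, 9.11 and 7.38 beside 8.07 to 8.29 in CUG10 mice and 8.37 to 8.98 with CWG-cPIP, and 0 of 4 called by limma (0 at an unadjusted p under 0.05). All 6 oligodendrocyte markers had lower means in vehicle mice (median -0.59), with overlapping list means (13.01 to 13.51 in CUG10 and 12.12 to 13.37 in vehicle mice). Of the 6, 0 were called by limma and 1 was at an unadjusted p under 0.05, beside the same 30.5%. Of 6 astrocyte markers, 4 had lower means (median -0.27) and the other 2 were called higher, Gfap by 1.21 ± 0.25 and Aqp4 by 0.91 ± 0.17 (limma adjusted p = 0.0267 and 0.0228). Myeloid markers had higher list means in vehicle mice (9.59 to 9.69 against 8.92 to 9.27), although P2ry12 had a lower mean (-0.34). Of the 6 myeloid markers 3 were called higher, and 7.37% of all genes tested were called higher. With the mean of the pan-neuronal list as a covariate, 0 channel genes and 0 genes of the whole table were called in this comparison. The median over the channel genes was then -0.46, beside -0.35 without the covariate. Of the 4 called genes, Cacna1i went from -0.95 to -1.29 and Cacna2d3 from -0.40 to -0.61. Cacnb4 went from -0.72 to -0.42 and Scn2b from -0.69 to -0.08. The list mean was higher in every CUG10 mouse than in every CUG300 mouse, so this fit cannot separate it from the group. The part of the cell composition in the channel values was not tested.

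Markers of neighboring tissue also varied. The mean of 10 choroid plexus markers was 6.03, 7.53 and 8.91 in CUG10 mice and 6.23 to 6.33 in treated mice, and it had a median of 8.56 and a highest value of 9.12 in vehicle mice, with 0 called by limma in vehicle against CUG10 mice (0 at an unadjusted p under 0.05). With this mean as a covariate, 0 channel genes and 1 gene of the whole table were called, while the median over the channel genes stayed at -0.35 and Cacna1i at -0.98 (limma adjusted p = 0.0949). Of 8 diencephalon markers, 0 were called by limma and 3 reached an unadjusted p under 0.05, beside 30.5% of all genes in either direction. Their list means were 5.71 to 6.01, 6.05 to 6.75 and 6.76 to 7.04 in CUG10, vehicle and treated mice.

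Channel genes have long transcripts, and transcript length moved with the differences between mice. Over 14745 tested genes with an exonic length, the Spearman correlation between that length and a mouse's deviation from the gene's mean was -0.54, 0.27 and -0.14 in vehicle replicates 1 to 3, 0.29, 0.40 and -0.27 in treated replicates 1 to 3, and -0.09, 0.10 and 0.33 in CUG10 replicates 1 to 3. These correlations are across genes, which are not independent. In the class of exonic length over 10 kb, 69.9% of 1438 genes had a lower mean in vehicle mice (median -0.16), against 35.3% of 1932 genes under 2 kb (median 0.10). Of the channel genes 11 were over 10 kb, all 11 with lower means and a median of -0.35, and 12 were of 5 to 10 kb, 11 with lower means and a median of -0.35 beside -0.07 for all genes of that class. When a smooth trend of each mouse on exonic length was taken out, an alternative chosen after seeing the data, the median over the channel genes was -0.31 and 7 were called lower, among them Cacna1b, Cacna1i, Cacnb1, Cacnb4, Scn2b and Scn4b, whereas Cacna2d3 was not (limma adjusted p = 0.109). Genes called lower over the whole table also rose in that fit, from 496 of 14867 to 807 of 14745. The part of length in the channel values was not tested further.

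**Figure D5:**
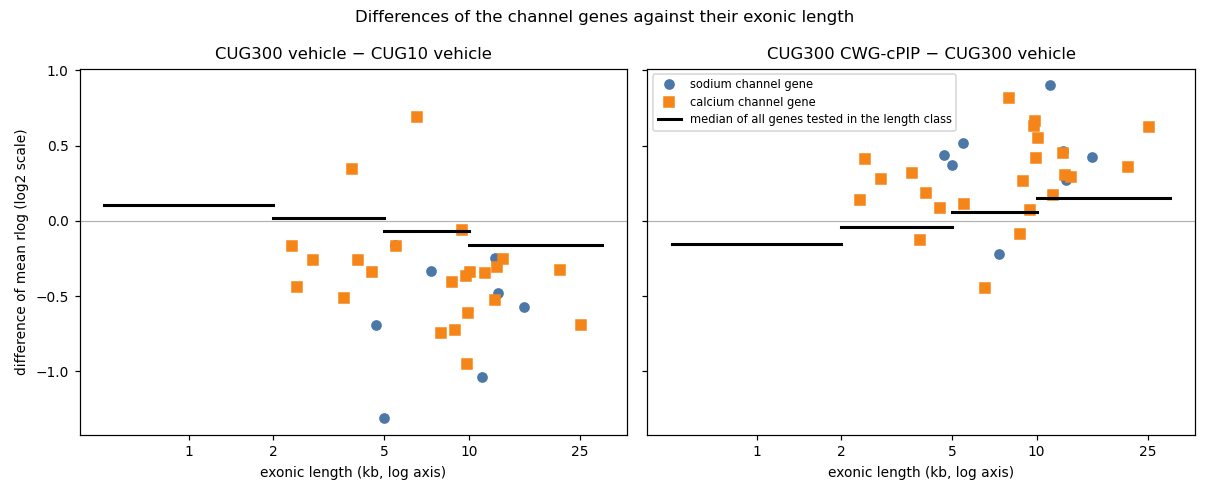
Difference of group means on the log2 scale (vertical axis) against exonic length in kb (horizontal log axis) for 31 sodium (blue) and calcium (orange) channel genes, for CUG300 vehicle minus CUG10 vehicle (left) and CUG300 CWG-cPIP minus CUG300 vehicle (right); black lines are medians of all genes tested under 2, 2 to 5, 5 to 10 and over 10 kb. On the left the lines go from 0.10 to -0.16 and most channel genes lie below them; on the right the lines go from -0.16 to 0.15 and most channel genes lie above them.

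The second comparison sets CUG300 mice injected with vector and CWG-cPIP together against those injected with vector and vehicle. No channel gene passed the test, although 29 of 33 had higher means with CWG-cPIP than with vehicle, and the median difference was 0.32 against 0.00 over all genes. In limma 0 of 33 were called in either direction, beside 0% of all genes tested, and the smallest adjusted p was 0.483, also over all genes. At an unadjusted p under 0.05 there were 10 channel genes, all higher, beside 8.82% of all genes in either direction. Treated mice lay above vehicle mice without overlap in 5 genes, among them Cacna1i, Cacnb2, Cacng7 and Scn2b, beside 4.97% of all genes, and below them in 0, beside 3.5%. This comparison shares the vehicle mice with the first one, so opposite signs in both are not independent. Markers of neighboring tissue also differed here. All 10 choroid plexus markers had lower means with CWG-cPIP (median -2.21), 9 of them without overlap and 9 at an unadjusted p under 0.05, and 7 of 8 diencephalon markers had higher means (median 0.49), 5 of the list at an unadjusted p under 0.05, with 0 called by limma in either list. With the choroid plexus mean as a covariate the median over the channel genes was 0.36.

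By gene, the largest differences were in pores and an α2δ subunit. Scn1a differed by 0.90 ± 0.36 (95% interval 0.09 to 1.71), Cacna2d2 by 0.81 ± 0.31 (0.10 to 1.52), Cacna1i by 0.66 ± 0.18 (0.25 to 1.08), Cacna1h by 0.63 ± 0.41 (-0.30 to 1.57) and Cacna1e by 0.62 ± 0.43 (-0.36 to 1.60). In each of these 5, treated replicate 3 was the lowest treated mouse, and except in Cacna1i it lay within the vehicle range. Of the other called genes of the first comparison, Scn2b differed by 0.44 ± 0.19 (0.01 to 0.87), Cacnb4 by 0.26 ± 0.19 (-0.18 to 0.70) and Cacna2d3 by -0.09 ± 0.10 (-0.31 to 0.14). The intervals of Cacnb4 and Cacna2d3 include 0. There were 4 genes with lower means with CWG-cPIP, Cacna1s (-0.44 ± 0.20), Scn7a (-0.22 ± 0.12), Cacng5 (-0.13 ± 0.17) and Cacna2d3.

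Medians were above 0 in each kind of subunit, at 0.63 for the Cav3 pores, 0.42 for the Cav2 pores, 0.40 for the sodium channel β genes, 0.39 for the sodium channel pores, 0.30 for the Cav1 pores, 0.26 for the α2δ genes, 0.22 for the calcium channel β genes and 0.21 for the γ genes. Exonic length moved with this comparison as well, with a Spearman correlation of 0.36 over 14745 genes, and 76.4% of genes over 10 kb had a higher mean with CWG-cPIP (median 0.15) beside all 11 channel genes of that class (median 0.43). With the trend on length taken out, the median over the channel genes was 0.26, 28 of 33 had higher means and 0 were called.

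The third comparison sets CUG300 mice given CWG-cPIP against CUG10 mice and asks how far treated mice differed from the short-repeat controls. Repeat length and compound both differ between these groups. Channel genes lay on both sides of 0, with 21 of 33 lower and a median of -0.07 beside 0.00 over all genes. In limma 0 of 33 were called in either direction, beside 0% of all genes; 6 were at an unadjusted p under 0.05, all lower, beside 13.4% of all genes in either direction. Treated mice lay below all CUG10 mice in 6 genes (18.2%; among them Cacna2d3, Cacnb1, Scn2a1, Scn2b and Scn7a), beside 12.4% of all genes, and above them in 1, Scn3b, beside 13.4%. The directions of 5 genes near 0 turned under median centering and of 4 under quantile scaling. The CUG10 and the treated mice are shared with the other comparisons.

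The differences that were largest here were Scn4b (-0.94 ± 0.37, limma adjusted p = 0.322), Scn7a (-0.55 ± 0.12, adjusted p = 0.13), Cacna2d3 (-0.49 ± 0.10, adjusted p = 0.13), Cacnb4 (-0.46 ± 0.19, adjusted p = 0.347) and Scn3b (0.36 ± 0.20, adjusted p = 0.483). In Scn7a and Cacna2d3 treated and vehicle mice overlapped, and both lay below all CUG10 mice. The values of the 4 genes called in the first comparison, set side by side, were -0.95 for vehicle and -0.29 for CWG-cPIP in Cacna1i, -0.72 and -0.46 in Cacnb4, -0.69 and -0.26 in Scn2b, and -0.40 and -0.49 in Cacna2d3. In Scn1a they were -1.04 and -0.14, and in Scn4b -1.31 and -0.94. The 4 genes were picked for low values in the vehicle mice against the same CUG10 mice. Smaller differences in another group could follow from that choice alone, and these pairs were not tested.

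Across all 3 groups at once, the limma F test called 0 of 33 channel genes, beside 0% of all genes, with a smallest adjusted p among them of 0.0682, and 16 were at an unadjusted p under 0.05, beside 23.5% of all genes. The count was 2 without CUG300 CWG-cPIP replicate 2 and 6 without CUG300 CWG-cPIP replicate 3.

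Proteins that anchor, modulate or traffic these channels, with some of other channels, were followed in a list of 28 genes, of which 27 were tested. The list also holds Nalcn, Unc79 and Unc80 of the sodium leak channel and Cnih2 and Cnih3 of AMPA receptors. These genes all had lower means in vehicle mice and are part of the counts and medians below. In CUG300 mice given vehicle, 3 were lower and 1 was higher than in CUG10 mice, with 24 lower means (88.9%) and a median of -0.45. The share called lower was 11.1%, beside 3.34% of all genes; 1 of 27 called higher is below the 7.37% of all genes, and 51.6% of all genes had lower means. The called genes were Akap5 (-0.96 ± 0.23), which anchors kinases and phosphatases to L-type channels and AMPA receptors, Rims2 (-0.63 ± 0.14), a scaffold of the presynaptic active zone, Stac2 (-0.61 ± 0.15), an adaptor of L-type channels, and Rrad (0.84 ± 0.20), a small GTPase that binds the β subunit and inhibits calcium channels. Their limma adjusted p-values, taken in that order, were 0.0361, 0.0319, 0.0389 and 0.0352. Gem, of the same GTPase family, had the largest difference of the list but missed the threshold (1.17 ± 0.34, limma adjusted p = 0.0569). With CWG-cPIP against vehicle 0 were called by limma (6 at an unadjusted p under 0.05, beside 8.82% of all genes, median 0.30). Against CUG10 mice 0 were called (3 at an unadjusted p under 0.05, beside 13.4% of all genes, median -0.10).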

How the data were processed

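Reads were trimmed by the authors with Trim Galore 0.6.6, mapped to mm10 with STAR 2.7.9a and counted per gene with RSEM 1.3.3, per the labels and the Methods, and the authors deposited 1 log2-scale rlog value per gene and mouse, made with DESeq2 1.36.0. For the rlog options, the annotation and strand-specific counting, the settings are not given in the sources used here. rlog shrinks low genes toward their mean, and it keeps no counts, so no count model could be run.

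Genes whose mean reached log2(10) were fitted with limma 3.58.1 in R 4.3.3, with 1 mean per group, all 9 mice, a variance trend and 3.03 prior degrees of freedom. Benjamini-Hochberg adjustment ran over all 14867 genes within each comparison. The procedure was tested on simulated data. P-values rest on the spread between 3 mice per group, with 1 variance per gene shared by all 3 groups and moderated across genes. The spread of the treated mice therefore also enters the p-values of CUG300 vehicle against CUG10 mice. Exonic lengths are merged exons of GENCODE M21 and cover 99.18% of genes tested; promoters are from RefSeq on GRCm38.p6.

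The members and lists were chosen with earlier results of these data known. Mouse values are given for called genes, for the highest per length and the largest difference in each kind of subunit, and for the 5 largest differences per comparison. Some genes, and 1 marker left out of its list, are not reported here, though the counts and medians over all channel genes include the former. Other genes are given by counts, ranges or differences. The alternatives were quantile scaling, median centering, a minimum mean of log2(100) or none, no variance trend, robust variance, only the groups compared, a replicate block, a pan-neuronal or choroid plexus list as a covariate and leaving out each mouse. The removal of a trend on exonic length was added after seeing the data.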

Additional observations from a re-analysis of the deposited data

How the results depend on the processing

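The count of 4 called channel genes in CUG300 vehicle against CUG10 mice was 10 with median centering, 7 with the trend on exonic length removed, 2 with no filter on low values, 2 with no variance trend, 2 with robust variance, and 0 with the pan-neuronal or the choroid plexus list as a covariate. Over the whole table, 496 genes were called lower before these changes and 908, 807, 378, 455, 455, 0 and 1 after them, in order. The count of called channel genes ranged from 0 to 12 when each mouse was left out. The median difference of the channel genes then ranged from -0.51 to -0.28. The F test count between all groups was 2 with the trend on exonic length removed and 0 to 6 when each mouse was left out. Counts of 0 in both other comparisons stayed 0 under every alternative run. The cause of these changes was not tested.

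Of 853 repeats of the named genes' differences, 786 kept direction and side of the threshold, 45 lost and 17 gained a call, and 5 reversed. Only the 4 genes called in CUG300 vehicle against CUG10 mice could lose a call. Of 20 alternative fits each, Cacna1i kept its call in 13, Cacna2d3 and Cacnb4 in 8 and Scn2b in 6. The other named differences had no call to lose, so the 786 say little on how stable the calls were. Reversed values were 0.11 for Cacna1h in CUG300 vehicle against CUG10 mice without CUG300 vehicle replicate 1, 0.15 for Scn3b there with the pan-neuronal covariate and 0.047 without CUG300 vehicle replicate 3, 0.086 for Cacna2d3 in CWG-cPIP against vehicle with the choroid plexus covariate, and 0.11 for Scn2b in CWG-cPIP against CUG10 mice with the pan-neuronal covariate. With each mouse left out, these differences ran from -0.80 to 0.11 for Cacna1h and from -0.42 to 0.047 for Scn3b.

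Mice of different groups share replicate numbers. Deviations of same-numbered mice correlated between -0.50 and 0.41, and 3 of 9 mice correlated best with their own number, so the numbers were not taken to pair mice. With the replicate number as a block, 3 channel genes were called in CUG300 vehicle against CUG10 mice (Cacna1i, Cacnb4 and Scn2b), and 0 in each other comparison.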
